A study of Mus musculus with 8 samples.

Results

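The interferon-induced GTPases described here are 9 genes, namely the immunity-related GTPases (IRG) Iigp1, Irgm1, Irgm2 and Igtp, the guanylate-binding proteins (GBP) Gbp2, Gbp2b and Gbp3, and the Mx genes Mx1 and Mx2. They were found as all probe sets that the array annotation gives to one of these symbols, which returned 11 of the 45037 probe sets that are not controls, each with a single symbol. The table names 18193 genes by such probe sets. Iigp1 and Gbp2 have 2 probe sets each. All 11 passed the filter on dim probe sets, and Mx2 passed through the spleen GFP-positive arrays, since its mean over the other arrays lies under the filter. RNA came from mouse cells with a GFP reporter for AID, the deaminase that B cells use to switch and mutate their antibody genes, measured in 4 groups of 2 Affymetrix arrays. The first group is BCR-ABL1 bone marrow cells that are Aid-GFP-positive and the second is BCR-ABL1 bone marrow cells that are Aid-GFP-negative, both carrying the fusion kinase of Philadelphia chromosome leukaemia. The third and the fourth are splenic B cells stimulated with LPS and IL4, Aid-GFP-positive and Aid-GFP-negative. All 4 groups carry the reporter, so none is free of it. Strain, age, the way BCR-ABL1 was introduced, the length of stimulation, and whether the 2 arrays of a group stand for separate animals are points that the labels do not give, so p-values measure the spread between arrays, which may be technical.

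Interferons bind receptors that signal through JAK kinases to STAT proteins, which switch on GTPase genes through promoter elements named ISRE and GAS. IRG and GBP proteins are induced above all by interferon gamma and act inside the cell: in mice, effector IRGs such as Iigp1 load onto vacuoles that hold Toxoplasma or Chlamydia and help to break them, while the regulatory IRGs Irgm1, Irgm2 and Igtp sit on the cell's own membranes and keep the effectors inactive there. GBPs assemble on vacuoles and on bacteria and open the way to inflammasome activation. Mx proteins are dynamin-like GTPases induced by type I and III interferon that block viruses, Mx1 acting in the nucleus on influenza virus and Mx2 in the cytoplasm in rodents. Many inbred mouse strains carry defective Mx genes, and RefSeq lists Mx1 and Mx2 of its reference strain as transcribed pseudogenes.

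RefSeq promoter windows were examined for 6 of the 9 genes, and not for Iigp1, Mx1 and Mx2. Each window covers 250 bases before and 50 bases after a transcription start in build GRCm38.p6. Igtp and Irgm2 are direct neighbours on chromosome 11, where Irgm1 also lies. Gbp2b and Gbp2 are neighbours on chromosome 3, as are Gbp3 and Gbp7. The windows below are shown because they hold the interferon elements of genes whose changes are compared further on; capitals mark matches, on either strand, to the ISRE letters (GAAA, any 2 bases, GAAA) or the GAS letters (TTCNNNGAA), and each sequence runs 5′ to 3′ on the strand of its gene.
Igtp, chr11:58199306-58199605, plus strand: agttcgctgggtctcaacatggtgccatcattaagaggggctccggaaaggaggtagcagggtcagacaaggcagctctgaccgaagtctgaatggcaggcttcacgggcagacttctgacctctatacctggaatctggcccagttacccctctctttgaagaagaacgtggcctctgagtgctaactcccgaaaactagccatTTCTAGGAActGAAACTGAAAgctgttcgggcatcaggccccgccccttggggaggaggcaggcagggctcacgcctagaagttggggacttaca
Irgm2, chr11:58214727-58215026, plus strand: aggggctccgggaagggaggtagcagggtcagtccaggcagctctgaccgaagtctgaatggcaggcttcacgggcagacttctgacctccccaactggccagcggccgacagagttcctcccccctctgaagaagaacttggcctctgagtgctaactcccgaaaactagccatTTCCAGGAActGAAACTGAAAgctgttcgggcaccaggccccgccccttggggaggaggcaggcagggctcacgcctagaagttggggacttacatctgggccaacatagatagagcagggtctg
Irgm1, chr11:48871371-48871670, minus strand: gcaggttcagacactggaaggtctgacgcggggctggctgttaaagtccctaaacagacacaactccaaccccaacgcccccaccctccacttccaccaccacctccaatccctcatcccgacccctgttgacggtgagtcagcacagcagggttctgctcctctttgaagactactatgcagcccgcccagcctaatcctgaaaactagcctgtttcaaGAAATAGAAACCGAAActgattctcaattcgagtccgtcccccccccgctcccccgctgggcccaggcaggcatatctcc
Gbp2, chr3:142620413-142620712, plus strand: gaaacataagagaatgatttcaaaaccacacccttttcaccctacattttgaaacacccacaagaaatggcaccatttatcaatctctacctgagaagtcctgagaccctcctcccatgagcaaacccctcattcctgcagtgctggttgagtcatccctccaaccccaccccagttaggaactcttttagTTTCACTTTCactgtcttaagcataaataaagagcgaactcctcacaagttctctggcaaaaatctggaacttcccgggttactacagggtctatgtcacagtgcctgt
Gbp2b, chr3:142594597-142594896, plus strand: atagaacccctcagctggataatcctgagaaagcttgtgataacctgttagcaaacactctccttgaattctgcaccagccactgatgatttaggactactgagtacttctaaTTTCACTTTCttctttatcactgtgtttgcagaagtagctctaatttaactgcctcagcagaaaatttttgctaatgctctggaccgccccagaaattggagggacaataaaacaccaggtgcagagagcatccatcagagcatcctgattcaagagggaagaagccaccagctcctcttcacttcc
Gbp3, chr3:142559794-142560093, plus strand: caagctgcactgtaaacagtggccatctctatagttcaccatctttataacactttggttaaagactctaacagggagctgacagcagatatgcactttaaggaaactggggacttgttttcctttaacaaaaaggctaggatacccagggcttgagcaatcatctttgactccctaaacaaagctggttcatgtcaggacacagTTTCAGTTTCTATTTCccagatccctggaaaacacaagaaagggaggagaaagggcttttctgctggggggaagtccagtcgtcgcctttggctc

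The ISRE letters occurred in 6 of the 7 windows, against 3.44% of 32851 windows over all genes. The window without them belongs to the second annotated start of Gbp3. None of the 7 windows is from Iigp1, Mx1 or Mx2, so these counts do not cover those genes. The GAS letters occurred in 2 of the 7 windows, those of Igtp and Irgm2, against 8.3% of all windows. In Igtp the ISRE match lies 34 to 25 bases before the start and the GAS match 45 to 37 bases before it. In Irgm2 the ISRE match lies 64 to 55 bases before the start and the GAS match 75 to 67 bases before it. The pair shared 244 identical bases of 265 aligned, which is 81.3% of the window, while every other pair of windows shared at most 54.7%. Matches in Irgm1 lie 30 to 21 and 24 to 15 bases before the start and overlap each other, as do those in Gbp3 at 45 to 36 and 39 to 30 bases before its first start. The Gbp2 match lies 59 to 50 bases before the start and that of Gbp2b 137 to 128 bases before it, both on the minus strand. A search for the STAT6 letters (TTC, any 4 bases, GAA), the element through which IL-4 acts, matched 1 of the 7 windows, that of the second start of Gbp3, against 6.95% of all windows. These motifs were chosen after expression values had been seen, and a match is a run of letters, not a shown binding site.

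Signals below are quantile-normalized and are compared only within a probe set, apart from sums of markers, which the brightest probe sets dominate. Values in the text are normalized signal for single arrays, then group means ± SD (n = 2 arrays a group), then log2 changes ± standard error with the Benjamini-Hochberg adjusted p over 27022 probe sets tested; a probe set rose or fell where that p was under 0.05. Trimmed mean signals ran from 589 to 594 in the arrays of the other groups and were 497 and 477 in the spleen GFP-negative arrays, whose 3′ to 5′ ratio for Gapdh was 1.93 and 1.88, against 1.40 to 1.48 elsewhere. Spearman correlations between the spleen GFP-negative arrays and other groups ran from 0.822 to 0.85, while those between spleen GFP-positive and BCR-ABL1 arrays ran from 0.952 to 0.955. B cell markers summed to 24972 to 25035 in BCR-ABL1 GFP-positive, 25976 to 26307 in BCR-ABL1 GFP-negative, 32980.1 to 34817 in spleen GFP-positive and 40633 to 41416 in spleen GFP-negative arrays. Single markers differed in direction. Ms4a1 read 30.0 to 45.4 in BCR-ABL1 GFP-positive and 443 to 576 in BCR-ABL1 GFP-negative arrays. Its spleen arrays read 7192 to 7560 and 8004 to 8011. Pax5 read 285 to 307 in BCR-ABL1 GFP-positive, against 172 to 187 in spleen GFP-positive arrays. Pre-B markers summed to 39656 to 40249.9 in BCR-ABL1 GFP-positive and 37365 to 37928 in BCR-ABL1 GFP-negative arrays, against 2139 to 2406 in spleen GFP-positive and 3638 to 3957 in spleen GFP-negative arrays. Igll1 of this list went the other way. It read 476 to 599 in BCR-ABL1 GFP-positive and 584 to 613 in BCR-ABL1 GFP-negative arrays. Its spleen arrays read 673 to 1021 in GFP-positive and 1764 to 2230 in GFP-negative cells.

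The spleen GFP-negative arrays also held markers of other cells. The 11 myeloid markers summed to 534 to 542 in spleen GFP-positive arrays, with 5 of them under the floor of 32 in both, against 77346 to 79064 in spleen GFP-negative arrays, with 0 under it. The 9 T and NK cell markers summed to 378 to 388 in spleen GFP-positive arrays, with 2 under the floor in both, against 18308 to 19875 in spleen GFP-negative arrays, with 1 under it. In BCR-ABL1 cells the myeloid sum was 935 to 1008 in GFP-positive and 746 to 854 in GFP-negative arrays, with 7 and 8 of the 11 markers under the floor in both arrays. T and NK markers there summed to 5323 to 5395 in GFP-positive and 4144 to 4157 in GFP-negative arrays, of which Il7r, a gene that pre-B cells also express, made up 4776 to 4868 and 3729 to 3783.5. The T cell receptor genes Cd3d, Cd3e and Cd3g lay near or under the floor there, at 22.3 to 35.8 in GFP-positive and 20.4 to 39.3 in GFP-negative arrays. Klrd1 stood above the floor, at 296 to 313 in BCR-ABL1 GFP-positive and 169 to 186 in BCR-ABL1 GFP-negative arrays. It read 29.3 to 39.0 in spleen GFP-positive arrays. Among myeloid markers, Lyz2 read 395 to 403 in BCR-ABL1 GFP-positive and 299 to 365 in BCR-ABL1 GFP-negative arrays. Fcgr3 read 311 to 365 and 206 to 250 in these groups. In spleen GFP-positive arrays Lyz2 read 52.0 to 70.8 and Fcgr3 142 to 165. Macrophages and T cells can express IRG and GBP genes themselves, and the part of these cells in each spleen result below was not tested. In such bulk RNA, fewer cells of a type and less RNA per cell cannot be told apart.

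In both sources GTPase genes rose in GFP-positive cells, most of all Iigp1 in BCR-ABL1 cells and Gbp2b and Iigp1 in the spleen. In BCR-ABL1 cells 5 of the 11 probe sets rose in GFP-positive cells and 0 fell, where 2.80% of all probe sets tested were called and 1.57% rose. The median change of the 11 was 0.48 on the log2 scale, against -0.0023 over all probe sets tested. In the spleen 9 of the 11 rose in GFP-positive cells and 0 fell, where 78.2% of all probe sets were called and 44.9% rose. Mx2 is among the 9 and passed the filter through the spleen GFP-positive arrays, so its call has no weight as a test. The median change there was 1.80, against 0.17 over all probe sets. The arrays of the compared groups did not overlap for 9 of the 11 in BCR-ABL1 cells, all higher in GFP-positive cells, against 23.6% of all probe sets, and for 11 of 11 in the spleen, against 49.1%.

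**Figure D1:**
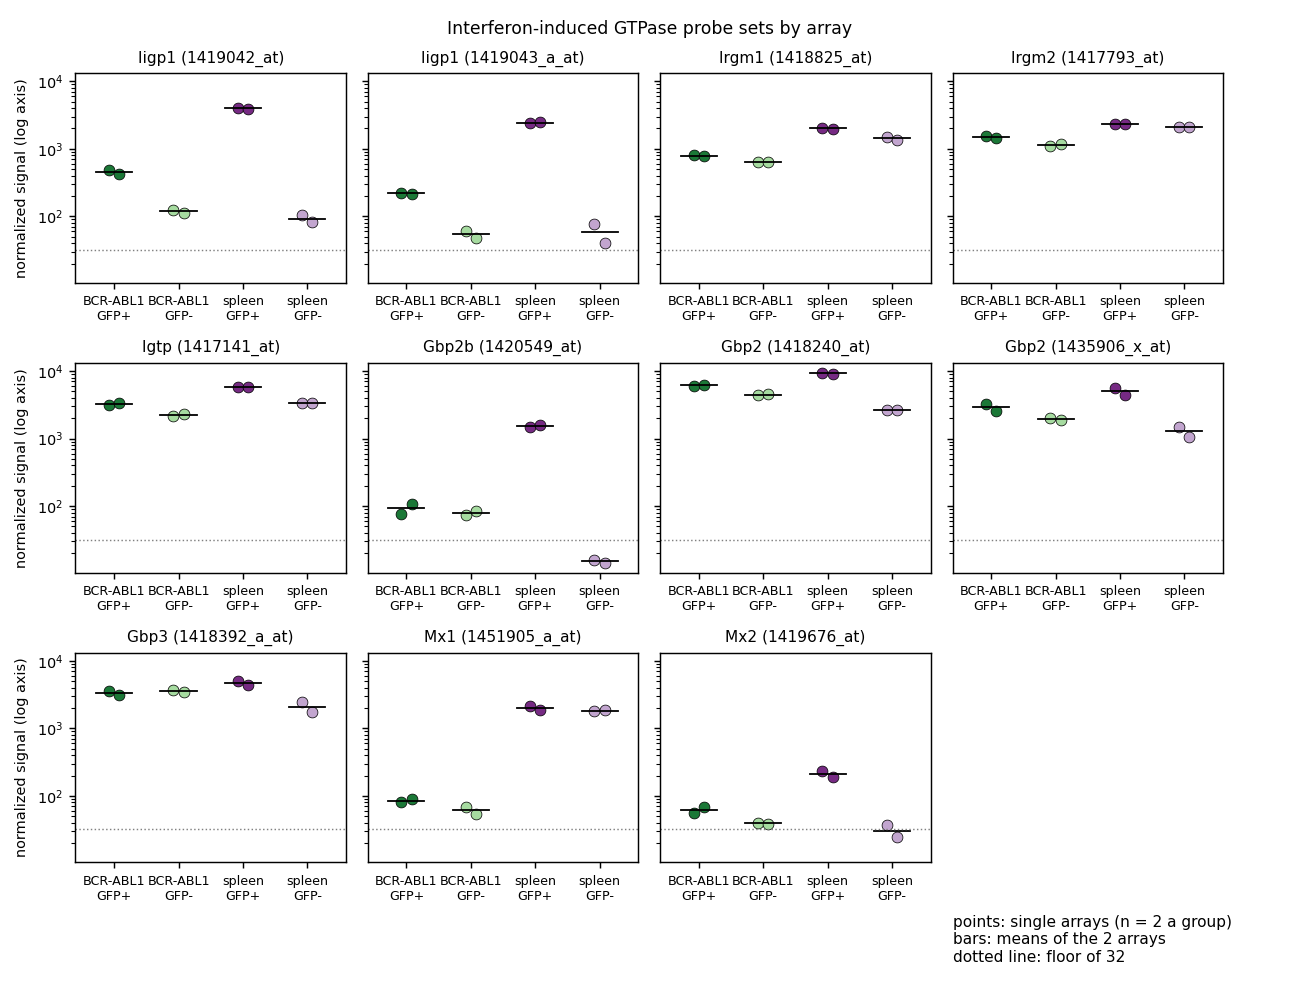
Normalized signal (log axis) of each of the 11 probe sets in the 8 arrays, 1 panel a probe set, with points for arrays, bars for means of 2 arrays and a dotted line at the floor of 32. Iigp1 and Gbp2b stand far higher in the spleen GFP-positive arrays than in the other groups, Mx1 is high in both spleen groups, and Irgm2 spans a narrower range of signals than these.

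Iigp1 encodes an effector IRG of mice. Its brighter probe set, 1419042_at, read 482 and 418 in BCR-ABL1 GFP-positive arrays, against 126 and 113 in BCR-ABL1 GFP-negative arrays. It read 4064 and 3878 in spleen GFP-positive arrays, against 104 and 81.5 in spleen GFP-negative arrays. Every GFP-positive array thus lay above every GFP-negative array, and the GFP-negative arrays of both sources were low. The group means were 450.3 ± 45.1 in BCR-ABL1 GFP-positive and 119 ± 9.59 in BCR-ABL1 GFP-negative cells, a 3.77-fold rise (1.91 ± 0.15, adjusted p = 0.000531). In the spleen they were 3971 ± 132 in GFP-positive and 92.7 ± 15.9 in GFP-negative cells, a 43.1-fold rise (5.43 ± 0.15, adjusted p = 4.29e-08). The second probe set, 1419043_a_at, gave 4.06-fold in BCR-ABL1 cells (2.02 ± 0.29, adjusted p = 0.00981) and 43.6-fold in the spleen (5.45 ± 0.29, adjusted p = 8.54e-07), so both probe sets moved alike. Its arrays read 223 and 215.5 in BCR-ABL1 GFP-positive, against 61.0 and 47.7 in BCR-ABL1 GFP-negative cells. Its spleen arrays read 2412 and 2475.5 in GFP-positive, against 78.3 and 40.1 in GFP-negative cells. Whether close IRG copies share the signal of either probe set was not tested.

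Irgm1 encodes a regulatory IRG that guards lysosomes and Golgi membranes. It read 813 and 771 in BCR-ABL1 GFP-positive arrays, against 631 and 628 in BCR-ABL1 GFP-negative arrays. In the spleen it read 2020.4 and 1994 in GFP-positive arrays, against 1500.5 and 1340.1 in GFP-negative arrays. The groups did not overlap in either source, and both spleen groups lay above both BCR-ABL1 groups. The change was 0.33 ± 0.082 in BCR-ABL1 cells (adjusted p = 0.0988) and 0.50 ± 0.082 in the spleen, where it rose 1.42-fold (adjusted p = 0.000633). The spleen change of Irgm1 was 0.91 on the deposited scale and 1.07 after all arrays were shifted to a common median. Igtp, also named Irgm3, encodes a regulatory IRG of the endoplasmic reticulum and lipid droplets. It read 3191 and 3401 in BCR-ABL1 GFP-positive arrays, against 2139 and 2331 in BCR-ABL1 GFP-negative arrays. It read 5782 and 5868 in spleen GFP-positive arrays, against 3335 and 3352 in spleen GFP-negative arrays. The pairs of groups stood apart in both sources. Igtp rose 1.48-fold in BCR-ABL1 GFP-positive cells (0.56 ± 0.057, adjusted p = 0.00218) and 1.74-fold in spleen GFP-positive cells (0.80 ± 0.057, adjusted p = 4.59e-06).

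Irgm2 encodes a regulatory IRG of the Golgi apparatus. It read 1553 and 1425 in BCR-ABL1 GFP-positive arrays, against 1108 and 1185 in BCR-ABL1 GFP-negative arrays, without overlap. It rose 1.298-fold there (0.38 ± 0.070, adjusted p = 0.0338). The spleen arrays read 2328 and 2348 in GFP-positive arrays, against 2083 and 2122 in GFP-negative arrays, again without overlap but with a narrow gap. The spleen change was 0.15 ± 0.070 (adjusted p = 0.0763, 95% interval -0.0095 to 0.31). On the deposited scale it was 0.47 (adjusted p = 0.000312) and after the median shift 0.63 (adjusted p = 7.44e-05), where the median of all probe sets moved to 0.35 and 0.51 from the 0.17 of quantile normalization. Relative to that median, Irgm2 stood at -0.02, 0.12 and 0.12 on the 3 scales, so its spleen direction against all probe sets depended on the scaling.

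Gbp2b, formerly Gbp1, encodes a GBP that carries a lipid anchor. It read 77.2 and 109 in BCR-ABL1 GFP-positive arrays, against 73.4 and 86.1 in BCR-ABL1 GFP-negative arrays, and these groups overlapped. The spleen arrays read 1504 and 1603 in GFP-positive arrays, against 15.99 and 14.3 in GFP-negative arrays, both of which lie under the floor. The spleen groups were thus far apart, by a distance that the floor sets. The change in BCR-ABL1 cells was 0.21 ± 0.18 (adjusted p = 0.863). In the spleen Gbp2b was at least 48.5-fold higher in GFP-positive cells (5.60 ± 0.18 against the floor, adjusted p = 9e-08).

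Gbp2 encodes a GBP that is recruited to vacuoles in mouse cells. Its probe set 1418240_at read 6023 and 6195 in BCR-ABL1 GFP-positive arrays, against 4339.5 and 4512 in BCR-ABL1 GFP-negative arrays. It read 9489 and 9129 in spleen GFP-positive arrays, against 2689 and 2667 in spleen GFP-negative arrays. The groups stood apart in both sources, and the spleen held both the highest and the lowest group. Gbp2 rose 1.38-fold in BCR-ABL1 GFP-positive cells (0.47 ± 0.041, adjusted p = 0.00107) and 3.48-fold in spleen GFP-positive cells (1.80 ± 0.041, adjusted p = 2.22e-08). Its second probe set, 1435906_x_at, whose suffix marks probes that can match other sequences, read 3274 and 2579 in BCR-ABL1 GFP-positive arrays, against 2020.4 and 1904 in BCR-ABL1 GFP-negative arrays. Its spleen arrays read 5542 and 4462 in GFP-positive arrays, against 1507 and 1071 in GFP-negative arrays. The groups stood apart in both sources with this probe set too. Its change was 0.57 ± 0.18 in BCR-ABL1 cells (adjusted p = 0.214), and it rose 3.91-fold in the spleen (1.97 ± 0.18, adjusted p = 1.87e-05).

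Gbp3 belongs to the GBP cluster of chromosome 3, which mouse macrophages need for inflammasome activation by cytosolic bacteria. It read 3515 and 3164 in BCR-ABL1 GFP-positive arrays, against 3634 and 3414 in BCR-ABL1 GFP-negative arrays, and these groups overlapped. The spleen arrays of Gbp3 read 5032 and 4339 in GFP-positive arrays, against 2464 and 1728 in GFP-negative arrays. The spleen groups stood apart, with the widest spread in GFP-negative cells relative to their mean of 2096 ± 521. The change in BCR-ABL1 cells was -0.079 ± 0.15 (adjusted p = 1), and Gbp3 rose 2.26-fold in spleen GFP-positive cells (1.18 ± 0.15, adjusted p = 0.000159).

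Mx1 read 80.1 and 88.5 in BCR-ABL1 GFP-positive arrays, against 68.2 and 53.6 in BCR-ABL1 GFP-negative arrays. In the spleen it read 2109 and 1879 in GFP-positive arrays, against 1806 and 1849 in GFP-negative arrays. Mx1 was therefore high in both spleen groups and low in both BCR-ABL1 groups, and the GFP fractions stood close together within each source without overlap. Its change was 0.48 ± 0.14 in BCR-ABL1 cells (adjusted p = 0.185) and 0.12 ± 0.14 in the spleen (adjusted p = 0.453, 95% interval -0.21 to 0.46). On the deposited scale the spleen change of Mx1 was 0.47 (adjusted p = 0.0202) and after the median shift 0.62 (adjusted p = 0.00423), which is -0.05, 0.11 and 0.11 relative to the median of all probe sets on the 3 scales. Mx2 read 56.4 and 68.0 in BCR-ABL1 GFP-positive arrays, against 40.1 and 38.2 in BCR-ABL1 GFP-negative arrays. It read 235 and 190.2 in spleen GFP-positive arrays, against 36.5 and 24.5 in spleen GFP-negative arrays, of which 1 lies under the floor. The spleen GFP-positive arrays of Mx2 lay well above those of the other 3 groups. Its change was 0.66 ± 0.16 in BCR-ABL1 cells (adjusted p = 0.0896), and it rose 6.18-fold in spleen GFP-positive cells (2.63 ± 0.16, adjusted p = 1.89e-06), a fold that rests in part on the floor and in a group through which Mx2 passed the filter.

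**Figure D2:**
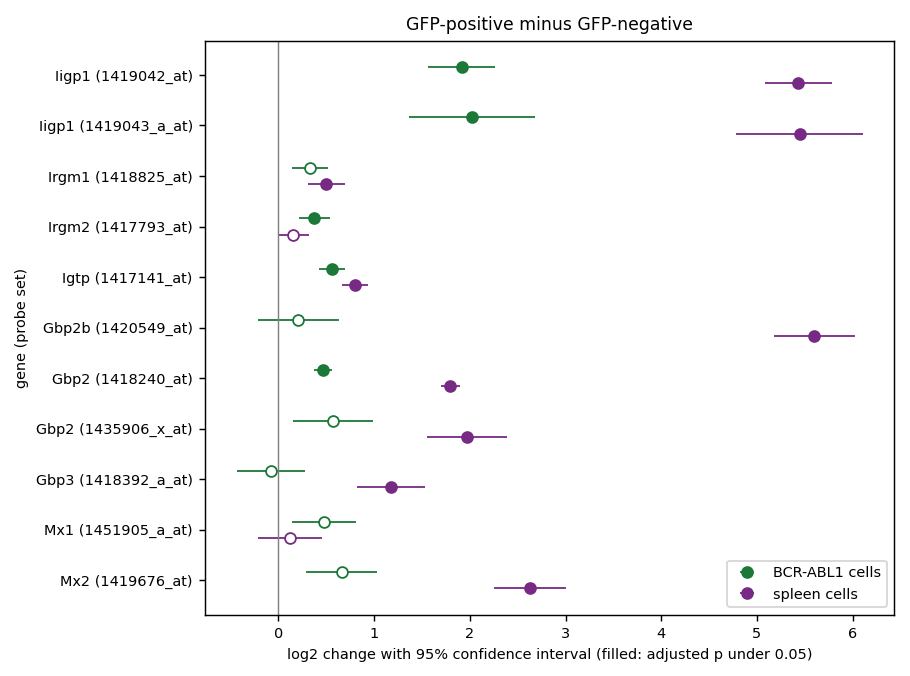
Log2 change of each probe set between GFP-positive and GFP-negative cells, with 95% confidence intervals, in BCR-ABL1 cells (green) and spleen cells (purple); filled points had an adjusted p under 0.05. Iigp1 stands at 1.91 in BCR-ABL1 cells and 5.43 in the spleen, and Gbp2b at 0.21 and 5.60.

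Of the 5 calls in BCR-ABL1 cells, those of Iigp1 by 1419042_at and of Gbp2 by 1418240_at were kept in every alternative run. Igtp lost its call in a fit of only the 4 arrays compared (adjusted p = 0.073). Irgm2 and the second Iigp1 probe set lost their call without any 1 of the 4 BCR-ABL1 arrays, with adjusted p up to 0.331 and 0.113, and Irgm2 also lost it without either spleen GFP-positive array. Irgm1 gained a call without spleen GFP-negative replicate 1 (adjusted p = 0.0312) or replicate 2 (adjusted p = 0.0322). Without both spleen GFP-negative arrays 8 of the 11 probe sets rose in BCR-ABL1 GFP-positive cells, the added ones being Irgm1, Mx2 and the second of Gbp2. Calls also grew over all probe sets in that run, to 6.19% from 2.80% in the main fit. In the spleen, leaving out any 1 array changed no call of the 11.

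**Figure D3:**
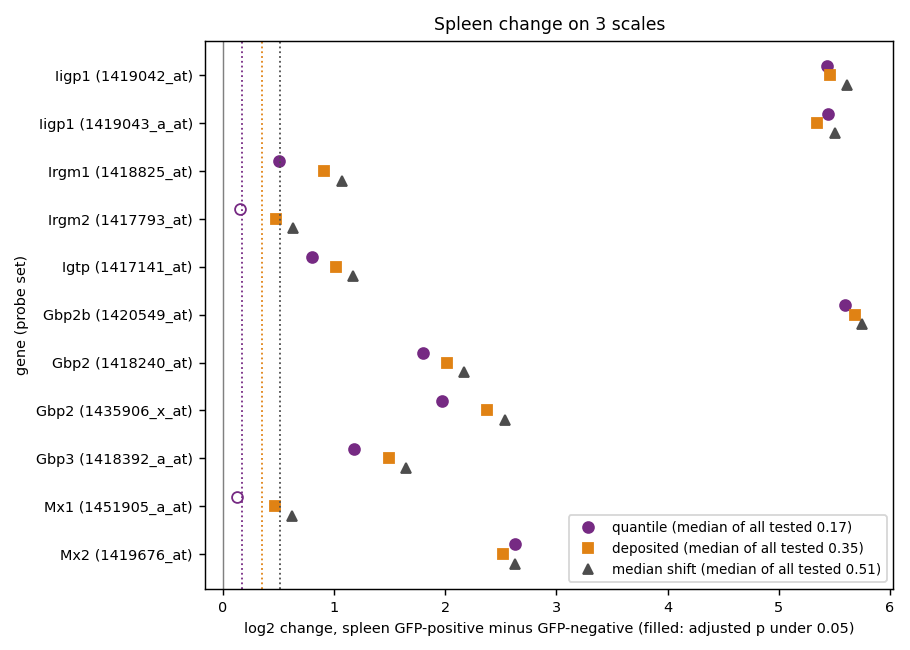
Log2 change of each probe set between spleen GFP-positive and GFP-negative cells under quantile normalization (circles), the deposited scale (squares) and a shift to a common median (triangles); dotted lines are the medians of all probe sets tested (0.17, 0.35 and 0.51) and filled points had an adjusted p under 0.05. Irgm2 and Mx1 sit near these medians on all 3 scales and are the only members whose spleen call depends on the scale.

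The share of higher calls among all called probe sets in the spleen was 57.4% after quantile normalization, 65.2% on the deposited scale and 71.1% after the median shift. The members called there numbered 9, 11 and 11 on these scales, where 78.2%, 79% and 80.3% of all probe sets were called.

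The GFP difference was smaller in BCR-ABL1 cells than in the spleen for most of the family. The test of the difference between the sources passed for 8 of the 11 probe sets, all in this direction, where 69.8% of all probe sets were called and 40.3% in this direction. The median difference of the 11 was -1.33 on the log2 scale, against -0.18 over all probe sets. It was widest for Gbp2b (-5.39 ± 0.26, adjusted p = 1.47e-06), where the spleen value rests on the floor, and for Iigp1 (-3.52 ± 0.21, adjusted p = 4.21e-06). Mx2 (-1.97 ± 0.23), Gbp2 (-1.33 ± 0.058) and Gbp3 (-1.26 ± 0.22) followed. As Mx2 passed the filter through the spleen GFP-positive arrays, its place among the 8 is a description with no weight as a test. Igtp differed by -0.24 ± 0.081 (adjusted p = 0.0286), a call lost in 8 alternatives, among them leaving out any 1 array but BCR-ABL1 GFP-positive replicate 2 and BCR-ABL1 GFP-negative replicate 1 (adjusted p up to 0.105). For Irgm1 the difference was -0.17 ± 0.12 (adjusted p = 0.225, 95% interval -0.44 to 0.10), for Irgm2 0.22 ± 0.099 (adjusted p = 0.075) and for Mx1 0.35 ± 0.20 (adjusted p = 0.156). Irgm1 passed on the deposited scale (-0.57, adjusted p = 0.00763), after the median shift (-0.72, adjusted p = 0.00293) and without spleen GFP-negative replicate 1 (adjusted p = 0.0343), and Mx1 passed without BCR-ABL1 GFP-negative replicate 1 (adjusted p = 0.0434).

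Set against spleen cells of the same GFP state, BCR-ABL1 cells held less of every one of the 11 probe sets in the GFP-positive fraction. All 11 fell, where 44.0% of all probe sets were called and 21.6% fell, and their median change was -1.34, against -0.026 over all probe sets. The contrast is between the GFP-positive arrays, which the GFP comparisons above share, but the spleen GFP-negative arrays took part in the normalization and in the estimate of the spread. With both of those left out, 11 of the 11 fell as well, where 56% of all probe sets were called. Mx1 was 23.7-fold lower (-4.56 ± 0.14, adjusted p = 1.48e-07), with means of 84.3 ± 5.96 in BCR-ABL1 and 1994 ± 163 in spleen GFP-positive cells. Gbp2b was 16.9-fold lower (-4.08 ± 0.18, adjusted p = 1.04e-06), with means of 93.2 ± 22.7 in BCR-ABL1 and 1553 ± 69.8 in spleen GFP-positive cells. Iigp1 was 8.84-fold lower by 1419042_at (-3.14 ± 0.15, adjusted p = 1.43e-06) and 11.1-fold lower by 1419043_a_at. Mx2 was 3.42-fold lower, Irgm1 2.53-fold, Igtp 1.77-fold, Irgm2 1.57-fold and Gbp2 1.52-fold. As Mx2 passed the filter through the spleen GFP-positive arrays, its place among the 11 is a description with no weight as a test. Gbp3 was 1.40-fold lower (-0.49 ± 0.15, adjusted p = 0.0342), a call lost in 10 alternatives, among them leaving out any 1 array but the spleen GFP-negative ones, with adjusted p up to 0.19. The second Gbp2 probe set lost its call without BCR-ABL1 GFP-positive replicate 2 (adjusted p = 0.0712) or spleen GFP-positive replicate 1 (adjusted p = 0.0752).

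In the GFP-negative fraction, of the 11 probe sets 5 were higher in BCR-ABL1 than in spleen cells and 4 lower, where 78.9% of all probe sets were called, 45.5% higher and 33.4% lower, and the medians were 0.19 for the 11 and 0.17 for all, so these counts lay near the background. The share of higher calls among all called probe sets was 57.6% after quantile normalization, 66.4% on the deposited scale and 70.6% after the median shift. The GBPs were higher in BCR-ABL1 GFP-negative cells: Gbp2 1.65-fold (0.72 ± 0.041, adjusted p = 1.17e-06), Gbp3 1.71-fold (0.77 ± 0.15, adjusted p = 0.00187) and Gbp2b at least 2.48-fold against the floor (1.31 ± 0.18, adjusted p = 0.000236). Gbp2 averaged 4426 ± 122 in BCR-ABL1 and 2678 ± 15.3 in spleen GFP-negative cells. The regulatory IRGs were lower: Irgm1 2.25-fold (-1.17 ± 0.082), Irgm2 1.83-fold (-0.88 ± 0.070) and Igtp 1.50-fold (-0.58 ± 0.057), each with an adjusted p of 2.78e-05 or less. These 3 changes were -0.72, -0.53 and -0.34 on the deposited scale and -0.60, -0.42 and -0.23 after the median shift, all still called, while Gbp3 stood at 1.07 and 1.18 and the second Gbp2 probe set at 1.05 and 1.16 on these scales. Mx1 was 30.2-fold lower (-4.92 ± 0.14, adjusted p = 3.72e-08), with means of 60.9 ± 10.3 in BCR-ABL1 and 1827 ± 30.0 in spleen GFP-negative cells. Iigp1 changed by 0.37 ± 0.15 (adjusted p = 0.0491) with 1419042_at, a call lost in 10 alternatives, among them leaving out any 1 array but spleen GFP-negative replicate 1, and by -0.054 ± 0.29 (adjusted p = 0.869) with 1419043_a_at. Without spleen GFP-negative replicate 2 the second probe set stood at -0.56 (adjusted p = 0.0264). The second Gbp2 probe set changed by 0.63 ± 0.18 (adjusted p = 0.0123) and lost its call without BCR-ABL1 GFP-negative replicate 1 (adjusted p = 0.0681) or spleen GFP-negative replicate 2 (adjusted p = 0.116). Mx2 changed by 0.19 ± 0.16 (adjusted p = 0.29).

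**Figure D4:**
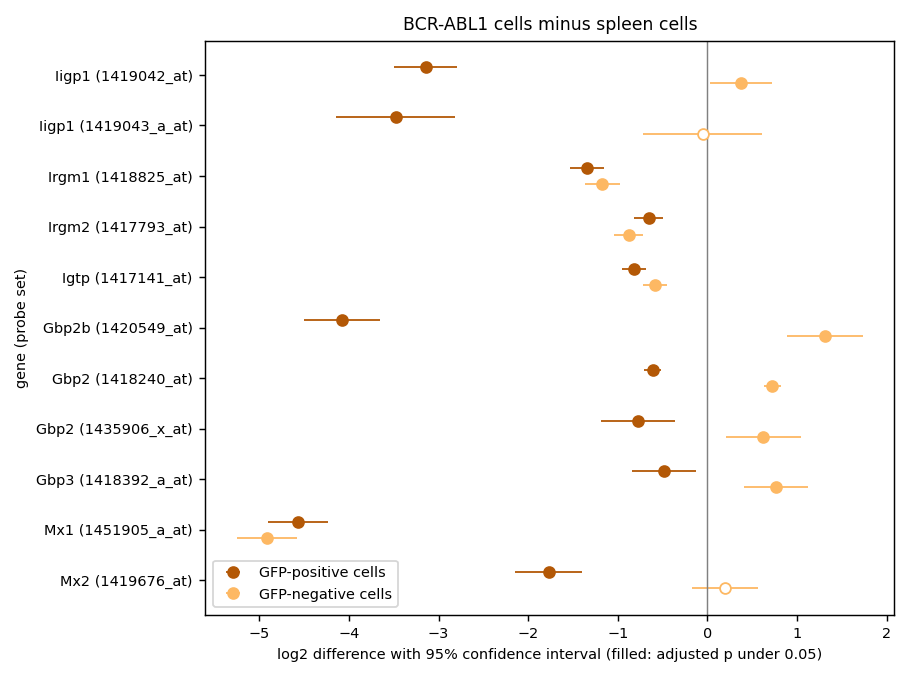
Log2 difference between BCR-ABL1 and spleen cells for each probe set, with 95% confidence intervals, in GFP-positive (dark) and GFP-negative (light) cells; filled points had an adjusted p under 0.05. All 11 dark points lie below 0, while among light points the GBPs lie above 0 and Irgm1, Irgm2, Igtp and Mx1 below it.

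The order of the 4 groups differed among the genes. Spleen GFP-positive cells held the highest mean of every member. Iigp1, Gbp2b, Gbp2, Gbp3 and Mx2 were lowest in spleen GFP-negative cells by their brightest probe set, whereas Irgm1, Irgm2, Igtp and Mx1 were lowest in BCR-ABL1 GFP-negative cells. Some neighbours that were tested did not differ past the test. They were the 2 BCR-ABL1 groups for Gbp2b, Gbp3, Irgm1, Mx1 and Mx2, the 2 spleen groups for Irgm2 and Mx1, and the 2 GFP-negative groups for Mx2. BCR-ABL1 GFP-positive and spleen GFP-negative cells, neighbours for Igtp, Irgm1, Irgm2, Mx1 and Gbp3, were not compared by a test. Igtp overlapped there, at 3191 and 3401 against 3335 and 3352. Spleen GFP-positive and BCR-ABL1 GFP-negative cells, neighbours for Gbp3, were not compared either. As a description over the 8 arrays, profiles centred on their own mean were compared by Euclidean distance of log2 values, with the brightest probe set of each gene. Among the members the smallest distances were those of the regulatory IRGs. They were 0.70 between Irgm2 and Igtp, 0.80 between Irgm1 and Irgm2 and 0.89 between Irgm1 and Igtp. Each of these genes lay nearer to a gene outside the members, named below. Profiles were not scaled, so genes with small changes lie close to each other whatever they encode. Gbp2 and Gbp3 lay 0.93 apart and Iigp1 and Gbp2b 1.83 apart. Mx1 lay farthest from the rest, at 4.96 from Irgm1 and 7.27 from Iigp1. Over 12214 genes, the gene nearest to Iigp1 was 1110032F04Rik (1.22), to Gbp2b Prag1 (0.74), to Gbp2 Slc12a4 (0.27), to Gbp3 Uap1 (0.15) and to Igtp Wipf1 (0.38). Nearest to Irgm1 was Hspbap1 (0.36), to Irgm2 Dock10 (0.17), to Mx1 Plagl1 (0.55) and to Mx2 B230217C12Rik (0.41).

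Other genes were counted by their brightest probe set; over all 12223 genes taken in this way 4.08% were called in BCR-ABL1 cells and 2.31% rose, with a median of 0, and in the spleen 76.9% were called, of all genes 45.6% rising and 31.3% falling, with a median of 0.18. Of 8 further GBP genes 3 had a tested probe set of their own, and Gbp6, a GBP gene of mice, rose in both GFP comparisons. It averaged 570.4 ± 15.5 in BCR-ABL1 GFP-positive and 304 ± 8.99 in BCR-ABL1 GFP-negative cells (0.91 ± 0.089, adjusted p = 0.00176). In the spleen it averaged 3679.5 ± 185 in GFP-positive and 602 ± 32.2 in GFP-negative cells (2.61 ± 0.089, adjusted p = 1.07e-07). Gbp7, the neighbour of Gbp3, changed by -0.054 ± 0.055 in BCR-ABL1 cells (adjusted p = 0.909) and rose by 0.72 ± 0.055 in the spleen (adjusted p = 6.58e-06). Gbp8 rose by 1.54 ± 0.21 in the spleen (adjusted p = 0.000206). Of 15 further IRG and giant GTPase genes 4 were tested. In BCR-ABL1 cells 1 of these rose and 0 fell, with a median of 0.14. In the spleen 3 rose and 1 fell, with a median of 0.31. Gm4951, an IRG gene, averaged 438 ± 5.38 in BCR-ABL1 GFP-positive and 98.5 ± 11.8 in BCR-ABL1 GFP-negative cells, a rise of 2.16 ± 0.15 (adjusted p = 0.000315). In the spleen Gm4951 averaged 1028 ± 37.4 in GFP-positive and 122 ± 19.2 in GFP-negative cells, a rise of 3.09 ± 0.15 (adjusted p = 5.85e-07). Of the dynamin superfamily not induced by interferon, 0 of 8 genes were called by limma in BCR-ABL1 cells and 0 had an unadjusted p under 0.05, with a median of -0.026, while in the spleen 6 rose and 1 fell, with a median of 0.52; the share called was near that of all genes in each source. Mfn2, which fuses mitochondria, rose by 1.27 ± 0.12 there (adjusted p = 1.93e-05).

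Genes that answer interferon or carry its signal were counted in 3 lists. Of 14 other type I interferon response genes, 11 rose and 0 fell in BCR-ABL1 GFP-positive cells, with a median of 0.92, against the 2.31% of all genes that rose. In the spleen 5 rose and 6 fell, with a median of -0.028, a share called near the 76.9% of all genes. Oas3, which senses double-stranded RNA, rose by 2.19 ± 0.18 in BCR-ABL1 cells (adjusted p = 0.00062), and Ifit3, which holds back foreign RNA, rose by 1.33 ± 0.098 there (adjusted p = 0.000419) and fell by 3.66 in the spleen (adjusted p = 3.74e-08). Of 13 other interferon gamma response genes, 0 were called by limma in BCR-ABL1 cells and 2 had an unadjusted p under 0.05. Their median was 0 there, and in the spleen 7 rose and 4 fell, with a median of 0.25. The share of all genes called in the spleen was 76.9%. Ido1, which breaks down tryptophan, was under the floor in both arrays of each group but spleen GFP-positive, where it averaged 2765 ± 73.6, so its spleen change of 6.43 is a lower bound and, as Ido1 passed the filter through that group, a description with no weight as a test. Fcgr1, an Fc receptor of macrophages, averaged 38.4 ± 7.51 in spleen GFP-positive and 505 ± 12.6 in spleen GFP-negative cells. It passed the filter through the spleen GFP-negative arrays, since its mean over the other arrays lies under the filter. Its fall in the spleen is therefore a description with no weight as a test.

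Of 19 tested interferon receptors, kinases and transcription factors, 5 rose and 0 fell in BCR-ABL1 GFP-positive cells, and 6 rose and 11 fell in spleen GFP-positive cells. Their medians were 0.14 and -0.50. Of all genes 2.31% rose in BCR-ABL1 cells, and in the spleen 45.6% rose and 31.3% fell. Irf1, the factor through which interferon gamma induces many GTPase genes, averaged 2328 ± 165 in BCR-ABL1 GFP-positive and 1849 ± 5.53 in BCR-ABL1 GFP-negative cells (0.33 ± 0.076, adjusted p = 0.0752). Its spleen means were 4661 ± 231 in GFP-positive and 4477 ± 368 in GFP-negative cells (0.060 ± 0.076, adjusted p = 0.491). Against spleen cells, Irf1 was lower in BCR-ABL1 cells by -1.003 ± 0.076 in the GFP-positive fraction (adjusted p = 1.97e-05) and by -1.27 ± 0.076 in the GFP-negative fraction (adjusted p = 1.48e-06). Irf9 and Stat2, which are parts of a complex that binds ISRE, rose by 0.50 ± 0.068 and 0.54 ± 0.088 in BCR-ABL1 cells (adjusted p = 0.00838 and 0.0188). In the spleen Irf9 fell by 0.85 and Stat2 rose by 0.41 (adjusted p = 8.7e-06 and 0.00276). Usp18, a brake on type I signalling, and Irf7, which amplifies it, rose by 1.53 ± 0.080 and 1.002 ± 0.12 in BCR-ABL1 cells. The interferon gamma receptor chains Ifngr1 and Ifngr2 changed by 0.30 ± 0.11 and -0.062 ± 0.14 in BCR-ABL1 cells (adjusted p = 0.296 and 1) and fell by 2.14 and 0.87 in the spleen. The type I receptor chain Ifnar1 changed by 0.40 ± 0.087 in BCR-ABL1 cells (adjusted p = 0.0607) and fell by 0.68 in the spleen, while Ifnar2 rose by 0.46 ± 0.12 in the spleen (adjusted p = 0.00616). Irf8 rose by 0.52 ± 0.038 in the spleen (adjusted p = 5.47e-06). Socs1, which blocks JAK kinases, changed by -0.15 ± 0.12 in BCR-ABL1 cells (adjusted p = 0.832) and rose by 1.52 ± 0.12 in the spleen (adjusted p = 9.02e-06), a lower bound since both spleen GFP-negative arrays lie under the floor.

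The genes that place GTPases on membranes and the genes of the IL-4 response were counted as well. Of 15 tested LC3 conjugation genes, whose products steer IRGs and GBPs to vacuoles in mice, 0 were called by limma in BCR-ABL1 cells and 1 had an unadjusted p under 0.05, with a median of 0.035, and in the spleen 5 rose and 7 fell, with a median of -0.14, a share called near the 76.9% of all genes. Of 9 tested IL-4 and STAT6 response genes, 1 rose and 1 fell in BCR-ABL1 cells, where 4.08% of all genes were called. In the spleen 5 rose and 2 fell, with a median of 0.66, again near the share of all genes called.

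**Figure D5:**
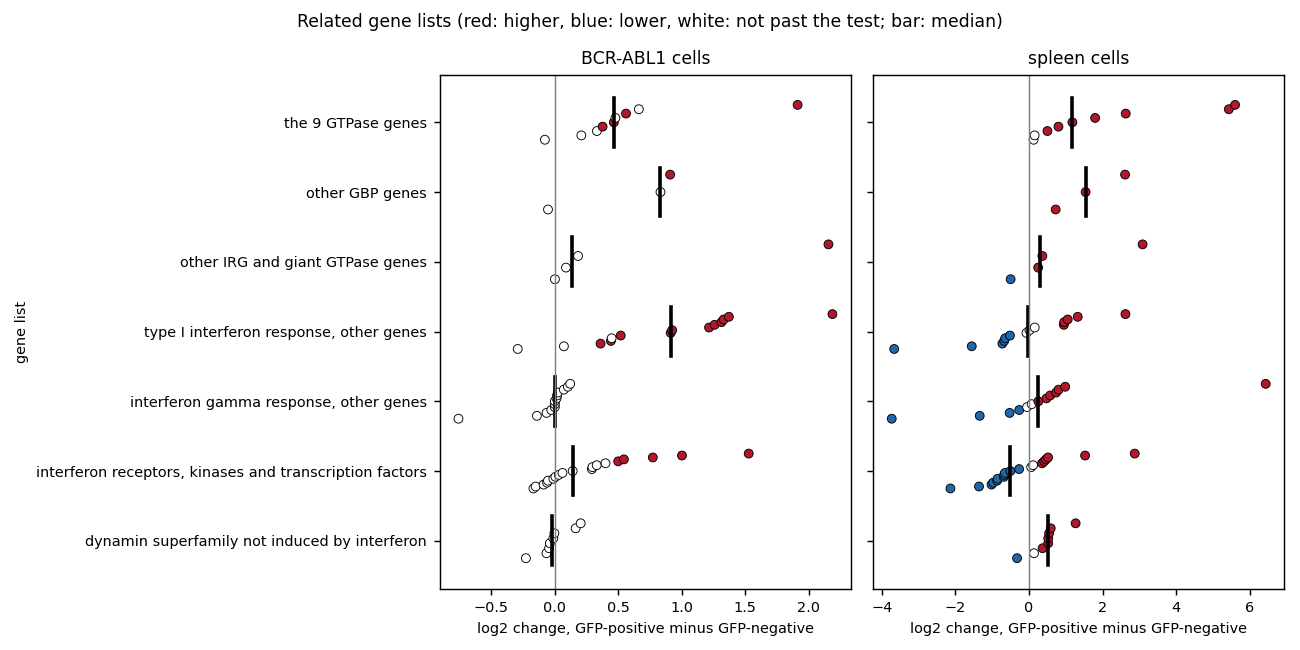
Log2 change between GFP-positive and GFP-negative cells of single genes (points, brightest probe set each) in 7 lists, in BCR-ABL1 cells (left) and spleen cells (right); red rose, blue fell, white did not pass the test, and bars are medians. The 9 GTPase genes have medians of 0.47 and 1.18, the other type I interferon response genes 0.92 and -0.028, and the other interferon gamma response genes 0 and 0.25.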

How the data were processed

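The deposited table holds linear signal intensities, which the authors made with GCOS 1.3 per the submitters' processing notes. For the probe summary and the array scaling, the sources used here name no method. Of 45101 probe sets, 64 controls were left out. Gene symbols come from the GEO platform annotation, in which 34945 probe sets have 1 symbol, 932 several and 9160 none. Arrays were quantile normalized, since trimmed means differed by a ratio of 1.25, values under 32 were set to 32 and log2 was taken, so list medians hold genes at the floor at their bound. Probe sets under the 40th percentile of mean log2 (5.67, a signal of 51.0) were not tested. All 8 arrays were fitted with limma 3.58.1 in R 4.3.3 (lmFit, eBayes with trend), 1 mean a group and 4 residual degrees of freedom, with Benjamini-Hochberg adjustment over 27022 probe sets. The fit was tested on simulated data. The smallest p an exact permutation of 2 arrays against 2 could give is 0.333, so calls rest on the model, and the number of arrays limits precision. The members, gene lists and tests were chosen with earlier results of these data known. Every member is named. Of other lists, genes named are among the 4 called with the largest change per comparison, plus a fixed set of receptors and transcription factors. Alternatives covered scale, floor, filter, eBayes settings, a replicate block, single arrays left out, 1 probe set per gene and 4-array fits.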

Additional observations from a re-analysis of the deposited data

Results flagged for a closer look

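The GFP difference itself differed between BCR-ABL1 cells and spleen cells, by an interaction test, for 8 probe sets. Values are the BCR-ABL1 change minus the spleen change on the log2 scale. They were -3.52 and -3.42 for the probe sets of Iigp1, -0.24 for Igtp, -5.39 for Gbp2b, -1.33 and -1.40 for the probe sets of Gbp2, -1.26 for Gbp3 and -1.97 for Mx2. Each shares the spleen GFP-negative arrays, which hold myeloid and T cell markers, and the part of those cells was not tested. Mx2 also passed the filter through the spleen GFP-positive arrays, so its value is a description with no weight as a test.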

How the results depend on the processing

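Of the 5 counts of called members, that of the BCR-ABL1 GFP comparison moved beyond 1.5 times: it was 5, and 3 with no filter, 3 in a fit of only the 4 arrays compared, and 3 to 6 with single arrays left out. It was 8 without both spleen GFP-negative arrays and 8 with the 4 BCR-ABL1 arrays normalized and fitted alone, both added after the data were seen. Of all probe sets, 6.19% and 7.99% were called in these runs. Over all probe sets the calls of that comparison ran from 197 to 2159, against 756. Those of the others were lowest with 1 probe set per gene, where 12223 were tested and not 27022. There 9426 were called in the spleen (77.1%, against 21129 or 78.2%) and 8439 for the difference (69%, against 18864 or 69.8%). BCR-ABL1 against spleen gave 6149 in GFP-positive cells (50.3%, against 11900 or 44.0%) and 9589 in GFP-negative cells (78.5%, against 21322 or 78.9%). With no filter 45037 were tested, and 23228 were called in the spleen and 23243 between GFP-negative groups, 51.6% each. Between GFP-positive groups the highest count was 15143 (56%), without both spleen GFP-negative arrays. The other counts ran from 7 to 11 in the spleen and 6 to 9 for the difference, both lowest where fewer members were tested (1 probe set per gene, 60th percentile filter), and 9 to 11 for BCR-ABL1 against spleen in GFP-positive and 7 to 9 in GFP-negative cells. With single arrays left out, Gbp2b in BCR-ABL1 cells ran from -0.041 (without GFP-positive replicate 2) to 0.45, and the second Iigp1 probe set between GFP-negative groups from -0.56 to 0.43, turning positive at 0.12 without BCR-ABL1 replicate 2 and at 0.43 without spleen replicate 1. The difference between sources turned to -0.097 on the deposited scale and -0.24 after the median shift for Irgm2, and to -0.091 after the median shift for Mx1; the cause was not tested. The floor sets the Gbp2b spleen value, 6.60 at a floor of 16 and 4.60 at 64, and Gbp2b lost its call between GFP-negative groups at 64 (adjusted p = 0.142). Same-numbered replicates had deviations correlating at 0.11 to 0.272, but nothing says that the numbers pair arrays. With the replicate block the 5 counts were 5, 9, 8, 11 and 9, while in BCR-ABL1 cells Irgm2 lost its call (adjusted p = 0.0574) and the second Gbp2 probe set gained one (adjusted p = 0.0183).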
